A study of Homo sapiens with 6 samples.

Results

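The 33 genes described here encode the glucose transporters, glycolytic enzymes, PFKFB enzymes and pentose phosphate enzymes on a list of symbols drawn up by their role in the pathways, and each symbol on that list was found as a row of the deposited count table, which held 63643 rows in all. They were measured in HEK293T cells, a standard line of human embryonic kidney origin kept in high-glucose medium, which carried a GLO1 deletion in both groups according to the labels (ΔGLO1). GLO1 starts the main route by which cells clear methylglyoxal (MGO). Group MGO (3 libraries) received 60 µM MGO for 4 h and group Control (3 libraries) was left untreated. Polyadenylated RNA was sequenced, and the values are read counts per gene. Nothing in the labels says whether the line is 1 clone or whether replicates were separate cultures, and the p-values therefore rest on a spread between libraries that may be technical.

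Glycolysis splits glucose into triose phosphates and turns these into pyruvate and lactate, while the pentose phosphate pathway branches off at glucose 6-phosphate and yields NADPH and ribose 5-phosphate. MGO itself forms when the triose phosphates dihydroxyacetone phosphate and glyceraldehyde 3-phosphate lose their phosphate, so the enzymes that make and use those intermediates sit at the source of the agent given here. Transcription of many glycolytic genes is known to be driven by the hypoxia-inducible factor HIF-1, which binds the core ACGTG, and by factors such as MYC and MondoA that bind E-boxes (CACGTG).

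Promoter windows of 300 bases, from 250 before to 50 after the annotated start, were taken from RefSeq (GRCh38.p14) and found for 31 of the 33 genes, all except SLC2A3 and PFKFB2. For each gene the first window listed for its symbol was used, and other starts were not searched. Some windows, such as those of GAPDH, PGAM1 and ENO3, began inside the annotated span of the gene and may belong to an alternative start. A few are printed to show where these motifs lie in a gene that rose strongly (GAPDH), a textbook HIF-1 target (PGK1) and a gene that fell (HK2). Each runs 5′ to 3′ on the strand of the gene, and capitals mark ACGTG or its reverse complement CACGT, which the E-box CACGTG also contains.
GAPDH promoter, chr12:6535014-6535313, plus strand: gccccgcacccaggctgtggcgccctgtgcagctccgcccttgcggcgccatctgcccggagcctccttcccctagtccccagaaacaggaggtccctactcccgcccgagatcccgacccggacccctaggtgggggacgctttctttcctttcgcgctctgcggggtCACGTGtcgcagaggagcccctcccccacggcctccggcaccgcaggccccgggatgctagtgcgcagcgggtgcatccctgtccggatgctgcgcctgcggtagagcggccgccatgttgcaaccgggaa
PGK1 promoter, chrX:78103998-78104297, plus strand: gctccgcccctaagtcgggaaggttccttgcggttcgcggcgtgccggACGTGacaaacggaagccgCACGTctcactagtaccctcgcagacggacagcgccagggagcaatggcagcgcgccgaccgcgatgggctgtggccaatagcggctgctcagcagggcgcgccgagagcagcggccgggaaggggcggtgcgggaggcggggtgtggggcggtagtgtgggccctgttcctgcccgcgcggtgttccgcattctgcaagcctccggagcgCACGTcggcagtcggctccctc
HK2 promoter, chr2:74833877-74834176, plus strand: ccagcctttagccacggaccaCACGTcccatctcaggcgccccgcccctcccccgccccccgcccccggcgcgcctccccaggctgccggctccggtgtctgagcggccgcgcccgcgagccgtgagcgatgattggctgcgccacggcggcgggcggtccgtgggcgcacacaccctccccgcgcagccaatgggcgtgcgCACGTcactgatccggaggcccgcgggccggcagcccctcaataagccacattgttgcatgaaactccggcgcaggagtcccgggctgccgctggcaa
The hypoxia core was present in 11 of 31 windows (35.5%), against 21.4% of 35116 RefSeq windows of this length, and the E-box in 4 of 31 (12.9%) against 7.26%. The GC box GGGCGG, which SP1 binds, searched on both strands like the others, was present in 26 of 31 (83.9%) against 45%. The GAPDH window holds 1 core, which is also an E-box, the PGK1 window 3 cores and the HK2 window 2 cores without an E-box. Of the 24 raised genes with a window 8 held the core, and of the 2 lowered ones 1 (HK2) did. The lowered genes with a window are too few for a comparison, and a link between motif and change was not tested.

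Total counts ranged from 117427883 to 157639431 in Control and from 128270160 to 138680220 in MGO libraries. Of the 7 HEK293T markers checked, VIM, KRT8 and KRT18 stood at 377 ± 16.0, 328 ± 7.27 and 95.8 ± 3.31 CPM (a gene's reads relative to its library's total, scaled by TMM, mean ± SD, n = 3) in Control, and PAX2, NEFM and LHX1 below 7 CPM. Of the 7, VIM, KRT8 and KRT18 rose (0.89, 1.58 and 1.88 as log2 change), NEFL, NEFM and PAX2 fell (−0.94, −1.39 and −1.94; NEFL from 67.5 to 35.1 CPM) and LHX1 did not pass the threshold. The summed level, most of it from the 3 that rose, was 854.8 to 910 CPM in Control and 1925 to 2172 CPM in MGO libraries. Blood cell markers summed to at most 0.809 CPM in any library (HBB at 0 counts), and fibroblast markers to 14.27 to 15.51 CPM in Control and 5.301 to 5.82 CPM in MGO libraries. The part of these shifts in the results below was not tested. GLO1 stood at 37.6, 36.3 and 37.9 CPM in Control and 106, 102 and 97.3 CPM in MGO replicates 1 to 3. The deleted stretch of GLO1 is not described in the labels, and a count over the whole gene is therefore no check of the deletion or of the groups.

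The comparison asks how transcripts of the glucose pathways stood after MGO. Counts were scaled by TMM and tested with edgeR's quasi-likelihood test over 23109 genes, with a call at an adjusted p under 0.05 (Benjamini-Hochberg). Of the 33 genes 32 passed the filter on low counts, and of those 25 rose, 3 fell (PFKFB2, HK2 and RPE) and 4 did not pass the threshold (ADPGK, PFKM, PFKFB3 and PGM2). Among all genes tested 79.3% were called, 38.8% as raised and 40.5% as lowered, so calls as such were common. The CPM of the groups did not overlap in 30 members, with MGO above in 27 and below in 3, where 81.5% of all genes had no overlap, 39.7% with MGO above and 41.8% below. The median log2 fold change was 0.56 over the 32 members and −0.02 over all genes. On library size alone, without TMM, 14 members were raised and 11 lowered, because that scaling moved the median of all genes by −0.525 (30.6% of all calls were then rises, in place of 48.9%). Relative to the median of all genes the members' median was 0.58 higher under both scalings, with 28 of 32 members above it. A change of scaling moves all genes by nearly the same amount, so this agreement is no independent check. With trends on transcript length, GC content and gene span removed, the difference was 0.499, with 25 of 32 members above. Without spike-in RNA the absolute level is unknown, and fewer transcripts per cell and fewer cells cannot be told apart.

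**Figure D1:**
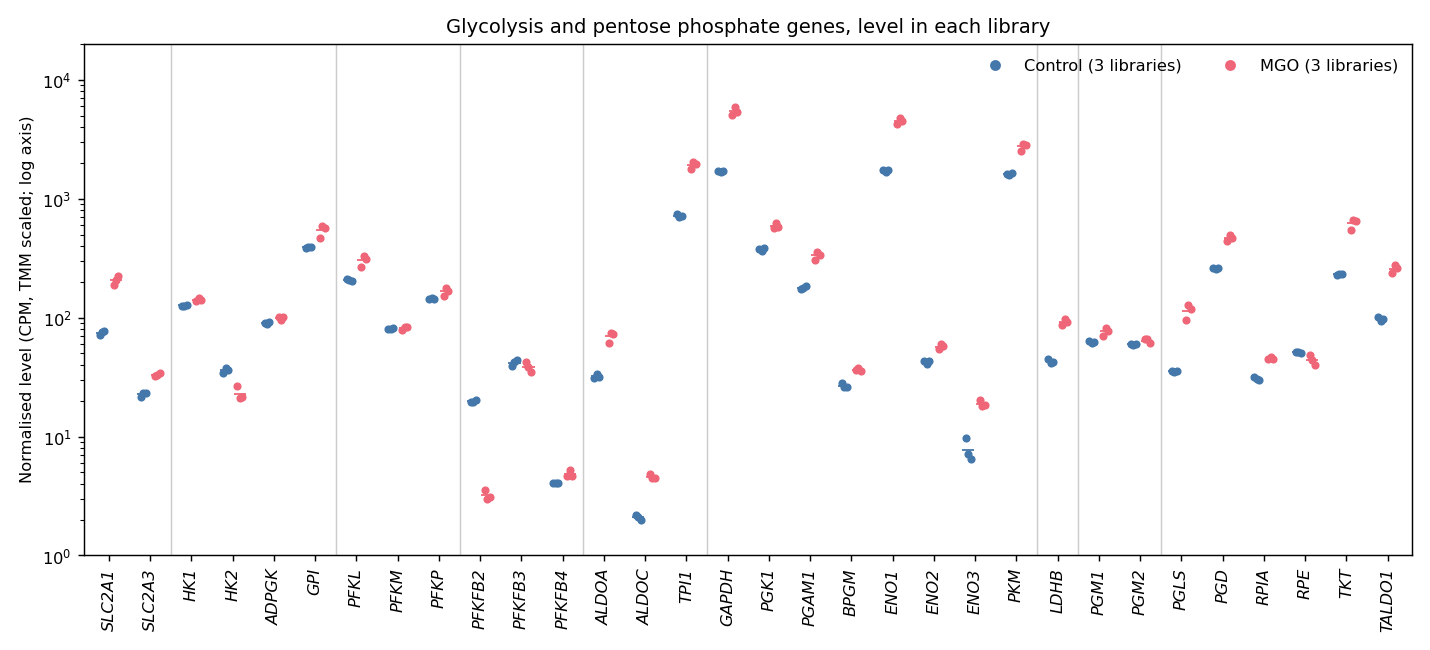
Level of each tested gene in CPM (TMM scaled, log axis) in the 3 Control and 3 MGO libraries (points; short lines are group means), with vertical lines between roles. GAPDH, ENO1, PKM and TPI1 have the highest means in both groups, though in Control TPI1 (719 CPM) lies closer to GPI (391 CPM). PFKFB2 is the gene that lies furthest below its Control level after MGO.

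Glucose enters through the facilitative transporters SLC2A1 (GLUT1) and SLC2A3 (GLUT3). SLC2A1 (chromosome 1, 42925375 to 42959176, coordinates on GRCh38 here and below) was at 72.1, 75.9 and 76.8 CPM in Control and 189, 208 and 224 CPM in MGO replicates 1 to 3. The groups did not overlap, and the level rose 2.76-fold (log2 change 1.47 ± 0.073 SE, adjusted p = 1.8e-09). SLC2A3 (chromosome 12, 7919230 to 7936275) went from 21.6, 23.2 and 23.4 to 32.4, 32.8 and 34.4 CPM, again without overlap (log2 change 0.55 ± 0.065 SE, adjusted p = 6.55e-06). On library size alone SLC2A3 stood at 0.020 (adjusted p = 0.776), so its call depends on the scaling, whereas SLC2A1 stood at 0.94 (adjusted p = 1.39e-07). Of the 2 transporters SLC2A1 thus had the larger change, as the ratio of their counts shows below.

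Hexokinases phosphorylate glucose in the first step of the pathway. HK2, the inducible isoform (chromosome 2, 74833981 to 74893359), had 34.4, 37.5 and 36.5 CPM in Control and 26.5, 21.1 and 21.4 CPM in MGO libraries, a 1.57-fold fall without overlap (log2 change −0.65 ± 0.089 SE, adjusted p = 2.33e-05). With trends on transcript length, GC content and gene span removed together (the gene-structure trend below), however, HK2 stood at 0.48 (adjusted p = 1.75e-05), so its direction turned. Which of these properties moved a value was not tested. HK1, the broadly expressed isoform (chromosome 10, 69269984 to 69401884), went from 126, 126 and 129 to 138, 146 and 142 CPM (log2 change 0.16 ± 0.058 SE, adjusted p = 0.0234). That small rise turned to −0.37 on library size alone, and its call ended without any 1 of Control replicates 1, 2 and 3 or MGO replicates 2 and 3 (adjusted p 0.05002 without MGO replicate 3 and at most 0.0933 without the others), without the low-count filter (0.149) or with a minimum of 1 CPM (0.0519), and with a replicate block (adjusted p = 0.074). ADPGK, an ADP-dependent glucokinase, stood at 90.1 ± 1.81 in Control and 98.8 ± 2.79 CPM in MGO (log2 change 0.13 ± 0.058 SE, adjusted p = 0.0518). GPI, which converts glucose 6-phosphate to fructose 6-phosphate, rose from 391 ± 3.18 to 541 ± 62.2 CPM (log2 change 0.47 ± 0.081 SE, adjusted p = 0.000167), with −0.061 on library size alone.

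Phosphofructokinase is the main control point of the upper pathway and is assembled from PFKL, PFKM and PFKP, the liver, muscle and platelet isoforms. PFKL (chromosome 21, 44300051 to 44327376) rose from 210.5, 206 and 204 to 268, 329 and 312 CPM, without overlap between groups (log2 change 0.55 ± 0.077 SE, adjusted p = 2.72e-05). Its change was 0.023 by library size alone and 0.026 after removal of the gene-structure trend, neither past the threshold. PFKP, at 145 ± 1.85 in Control and 166 ± 12.8 CPM in MGO, passed the threshold (log2 change 0.20 ± 0.068 SE, adjusted p = 0.0177), turned to −0.33 on library size alone and was no longer called when MGO replicate 2 (adjusted p = 0.0825) or 3 (0.0521) or Control replicate 1 (0.0535) or 3 (0.071) was left out. PFKM stood at 80.5 ± 1.02 in Control and 82.3 ± 2.69 CPM in MGO, with overlapping groups (log2 change 0.032 ± 0.058 SE, adjusted p = 0.629).

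The bifunctional PFKFB enzymes make and remove fructose 2,6-bisphosphate, the allosteric activator of phosphofructokinase. PFKFB2 (chromosome 1, 207034366 to 207081024), known as the heart isoform, had the largest change of the members, from 19.4, 19.6 and 20.2 CPM in Control to 3.58, 2.96 and 3.12 CPM in MGO replicates 1 to 3. This was a 6.13-fold fall without overlap (log2 change −2.62 ± 0.086 SE, adjusted p = 9.79e-11), and it remained a called fall under each setting run, at −3.14 by library size alone and −1.66 after removal of the gene-structure trend. YOD1, on the opposite strand, overlaps 9132 bases of the 46659-base span of PFKFB2. The kit kept the strand, but the strand setting of the counting is not stated, so reads of the overlap may be shared. PFKFB3, the inducible isoform with a high ratio of kinase to phosphatase activity, was at 39.3, 42.2 and 43.8 CPM in Control and 42.3, 38.4 and 35.1 CPM in MGO, with overlap (log2 change −0.11 ± 0.078 SE, adjusted p = 0.196). PFKFB4 was low, at 4.08, 4.10 and 4.10 and 4.66, 5.27 and 4.64 CPM (log2 change 0.25 ± 0.089 SE, adjusted p = 0.0221). The PFKFB4 call ended without MGO replicate 2 (adjusted p = 0.0968) or Control replicate 2 (0.0743) or 3 (0.0722), and without the low-count filter (0.0908), and the value turned to −0.28 on library size alone.

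Aldolase and triose phosphate isomerase make and interconvert the triose phosphates from which MGO arises. TPI1 (chromosome 12, 6867119 to 6870948) had 743, 697 and 718 CPM in Control and 1783, 2032 and 1955 CPM in MGO libraries. All 3 MGO libraries lay above all 3 Control libraries, and the rise was 2.67-fold (log2 change 1.419 ± 0.07 SE, adjusted p = 1.58e-09). ALDOA, the ubiquitous aldolase, went from 32.2 ± 1.12 to 69.6 ± 7.66 CPM (log2 change 1.11 ± 0.081 SE, adjusted p = 6.02e-08), and ALDOC, the brain isoform, from 2.09 ± 0.114 to 4.60 ± 0.192 CPM (log2 change 1.13 ± 0.096 SE, adjusted p = 2.53e-07). A second protein-coding gene on the same strand covers 6257 of the 6294 bases of ALDOA and another covers all 4150 bases of ALDOC, and how reads shared by overlapping genes were counted is not stated. The levels of both aldolases are therefore uncertain, as are those of LDHB (22457 bases shared with a coding gene on its strand), GPI (6099 bases) and PGK1 (139657 bases of its annotated span shared with ATP7A).

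All 8 enzymes from glyceraldehyde 3-phosphate to pyruvate were called as raised, with a median log2 fold change of 0.83, though on library size alone BPGM (−0.081) and ENO2 (−0.10) turned below 0. GAPDH (chromosome 12, 6533927 to 6538374), which oxidises glyceraldehyde 3-phosphate, had 1707, 1681 and 1723 CPM in Control and 5033, 5876 and 5369 CPM in MGO libraries. The groups lay far apart, with a 3.18-fold rise (log2 change 1.67 ± 0.073 SE, adjusted p = 6.24e-10). GAPDH is a common reference gene in expression assays, and here its groups did not overlap under TMM scaling, with a log2 change of 1.14 by library size alone.

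ENO1 (chromosome 1, 8861000 to 8879250), the ubiquitous enolase, was at 1758, 1669 and 1745 CPM in Control and 4207, 4754 and 4491 CPM in MGO (log2 change 1.38 ± 0.069 SE, adjusted p = 1.89e-09). ENO2, the neuronal enolase, rose less, from 42.5 ± 1.30 to 57.1 ± 2.66 CPM (log2 change 0.43 ± 0.063 SE, adjusted p = 4.54e-05). ENO3, the muscle enolase, went from 9.65, 7.09 and 6.51 to 20.1, 18.0 and 18.4 CPM, with the widest spread among the members' Control libraries relative to its mean (log2 change 1.29 ± 0.12 SE, adjusted p = 9.11e-07). PFN1 overlaps 970 bases of ENO3 on the opposite strand.

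PKM, the pyruvate kinase gene (chromosome 15, 72199029 to 72231822), rose from 1614, 1594 and 1644 to 2525, 2909 and 2824 CPM (log2 change 0.77 ± 0.07 SE, adjusted p = 4.97e-07). PGK1, which makes the first ATP of the lower pathway, rose from 376 ± 10.5 to 589 ± 26.9 CPM (log2 change 0.65 ± 0.062 SE, adjusted p = 8.38e-07), with 0.12 on library size alone (adjusted p = 0.0704). PGAM1, the phosphoglycerate mutase, rose by 0.90 (SE 0.069) and BPGM, which makes 2,3-bisphosphoglycerate, by 0.45 (SE 0.064).

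Per kilobase of transcript, so that genes can be set side by side, mean levels in Control were 1332 CPM per kb for GAPDH, 967 for ENO1, 704 for PKM and 493 for TPI1. In MGO they were 4242, 2516, 1198 and 1317 CPM per kb. The order of GAPDH and ENO1 means was the same in both groups. PKM lay above TPI1 in each Control library (702 against 509, 694 against 477 and 715 against 492 CPM per kb), and TPI1 lay above PKM in each MGO library (1221 against 1098, 1392 against 1266 and 1339 against 1229). In CPM, PKM lay above TPI1 in every library. The order in MGO libraries thus depends on the lengths used (2298.5 nt for PKM and 1460 nt for TPI1), which are medians over annotated transcripts.

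Lactate dehydrogenase exchanges pyruvate and lactate. LDHB (chromosome 12, 21635342 to 21757857) rose from 44.6, 41.4 and 42.3 to 86.6, 98.2 and 91.7 CPM (log2 change 1.11 ± 0.067 SE, adjusted p = 1.02e-08). LDHA was near 0, with 0, 0 and 0 counts in Control and 3, 0 and 5 counts in MGO libraries, and was not tested. Its neighbours in the table HPS5, GTF2H1 and SAA1, named after their values were seen, held 0, 1 and 0 counts over all 6 libraries, while LDHC and TSG101, listed a few rows further on, held 3991 and 61351. LDHA is used by most cells and 6 rows named as its pseudogenes held 100 counts together, so these values are not read as absent expression. For the other members with pseudogene rows, those rows held at most 0.958% of the parent's counts (SLC2A3).

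Of the 6 pentose phosphate genes 5 rose and 1 fell (median log2 change 1.13). PGLS (chromosome 19, 17511629 to 17521288), the lactonase of the oxidative branch, had 35.4, 35.1 and 35.4 CPM in Control and 96.2, 127 and 118 CPM in MGO, the largest rise of the members at 3.22-fold (log2 change 1.69 ± 0.092 SE, adjusted p = 3.73e-09). PGD, which yields NADPH and ribulose 5-phosphate, rose from 260.0, 254 and 261 to 437, 492 and 468 CPM (log2 change 0.85 ± 0.064 SE, adjusted p = 7.94e-08). Neither gene's groups overlapped.

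In the non-oxidative branch, TKT (chromosome 3, 53224707 to 53256052), the transketolase, rose from 230.0, 235 and 231 to 550.1, 663 and 645 CPM (log2 change 1.417 ± 0.076 SE, adjusted p = 3.37e-09). TALDO1, the transaldolase, rose from 101, 93.5 and 97.6 to 236, 277 and 262 CPM (log2 change 1.41 ± 0.072 SE, adjusted p = 2.28e-09). Both enzymes link the pentose phosphates back to glycolysis, and both rose by about as much as TPI1. The isomerase RPIA rose by 0.57 (SE 0.06), with 0.042 on library size alone (adjusted p = 0.538). The epimerase RPE went the other way, from 51.6, 51.4 and 50.8 to 48.3, 43.6 and 40.0 CPM, without overlap (log2 change −0.22 ± 0.073 SE, adjusted p = 0.0145). The fall of RPE lost its call under upper quartile scaling (adjusted p = 0.539) and without MGO replicate 3 (adjusted p = 0.0739). It was larger on library size alone (−0.75, adjusted p = 6.21e-06) and with the gene-structure trend removed (−0.71, adjusted p = 1.02e-07). The phosphoglucomutase genes had small values. PGM1, which ties glucose 6-phosphate to glycogen, stood at 0.30 (SE 0.068, adjusted p = 0.00151, and −0.23 on library size alone). PGM2 stood at 0.11 (SE 0.061, adjusted p = 0.121).

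**Figure D2:**
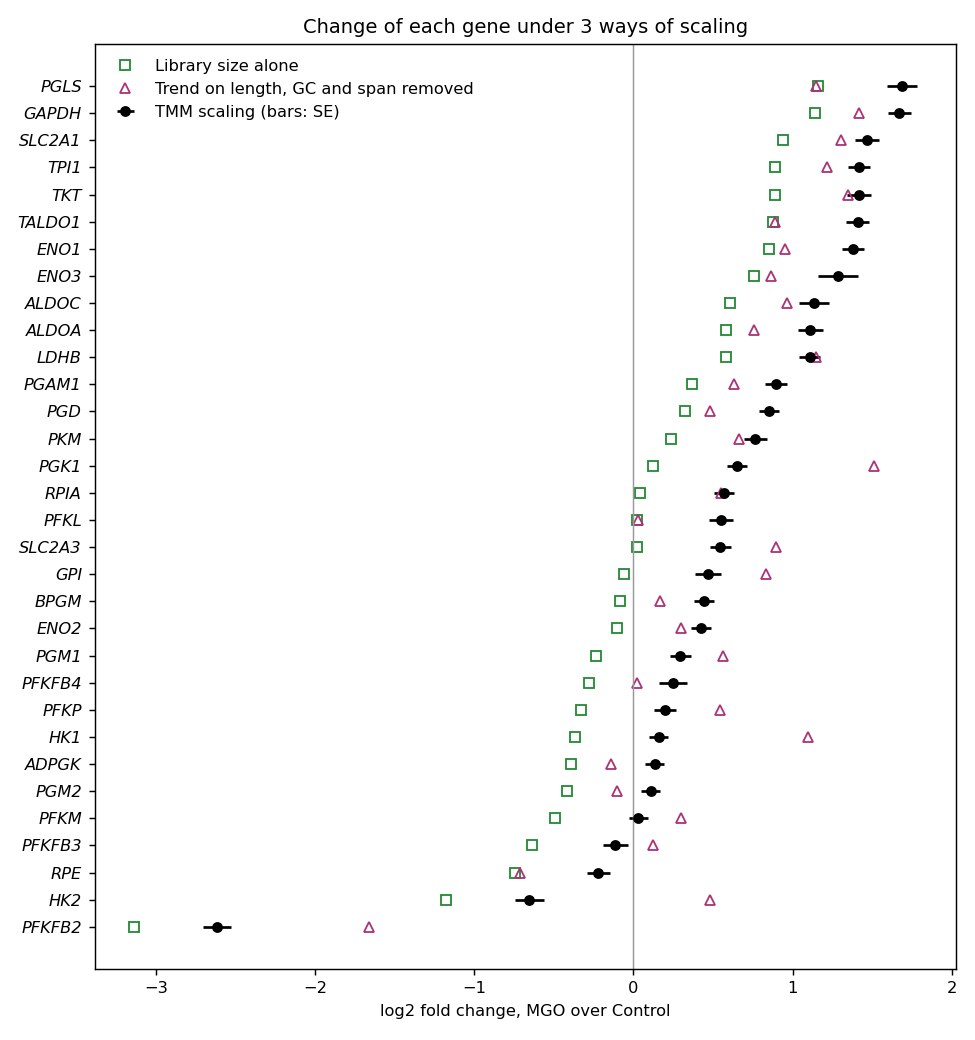
Log2 fold change of each tested gene, MGO over Control, under TMM scaling (filled circles, bars are SE), on library size alone (squares) and after removal of the gene-structure trend (triangles). PGLS, GAPDH, SLC2A1, TPI1 and TKT lie above 0 and PFKFB2 and RPE below 0 in all 3, whereas HK2 changes side.

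The MGO libraries were not alike in size of change. In 20 of the 25 raised members MGO replicate 1 was the lowest of the 3 MGO libraries, as for GAPDH at 5033 CPM and PGLS at 96.2 CPM. The share over all raised genes was not computed, and members share the same libraries. Over the whole table MGO replicate 1 also stood apart. Chi-square over its degrees of freedom was 45.75 against replicate 2 and 50.43 against replicate 3, and 15.37 between replicates 2 and 3. Leaving MGO replicate 1 out gave 26 raised and 4 lowered members, and leaving out each of the other libraries in turn gave 22 or 23 raised and 2 or 3 lowered.

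Shares within a library do not depend on scaling between libraries. The 33 genes together took 1.044, 1.007 and 1.023% of all counts in Control replicates 1 to 3 and 1.522, 1.659 and 1.592% in MGO replicates 1 to 3. Mitochondrially encoded transcripts also took more, 5.42 ± 0.124% in Control and 13.6 ± 1.07% in MGO, and the part of this in the members' shares was not tested. Within the counts on the 33 genes, GAPDH took 19.95 ± 0.0889% in Control and 28.4 ± 0.485% in MGO (SD, n = 3), and TPI1 took 8.42 ± 0.189% and 10.1 ± 0.0921%. PKM took 18.9 ± 0.155% and 14.4 ± 0.239%, and GPI 4.58 ± 0.103% and 2.83 ± 0.153%. GAPDH, ENO1, PKM and TPI1 together held 67.5 ± 0.272% in Control and 76.3 ± 0.215% in MGO, so the reads counted on the 33 genes were more concentrated on these 4 after MGO. The total holds almost no LDHA reads, and the levels of ALDOA, ALDOC, LDHB, GPI and PGK1 in it are uncertain, as given above. These shares are therefore not read as shares of the pathway's transcripts. These differences exceeded the spread between libraries, with no overlap of the groups, and they were not tested.

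**Figure D3:**
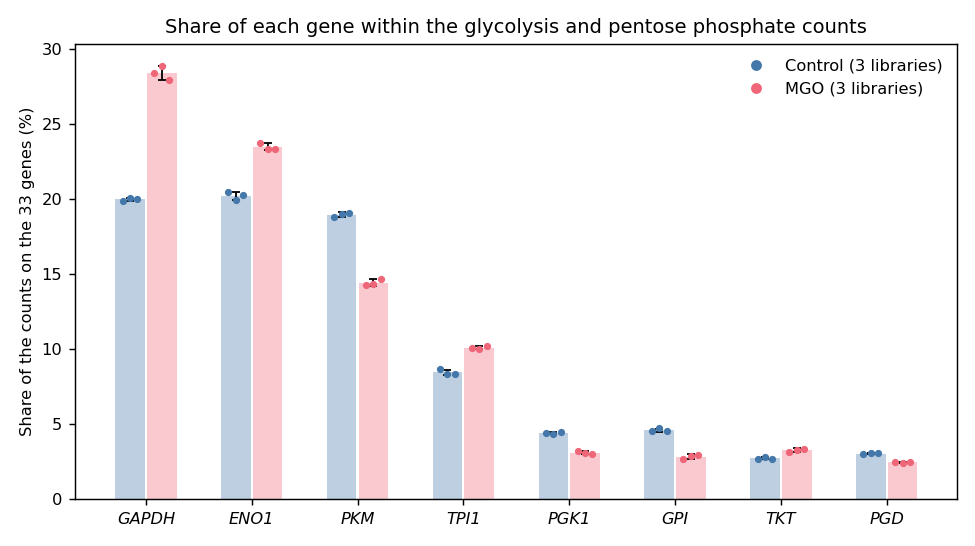
Share of the counts on the 33 genes taken by 8 of them, in % (bars are group means, error bars SD, points the 3 libraries of each group). GAPDH, ENO1, TPI1 and TKT take more and PKM, PGK1, GPI and PGD less in MGO than in Control libraries.

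Isoform ratios were compared in the same scale-free way for 10 pairs, with an exact two-sided permutation test on log2 ratios (smallest possible p = 0.10). In 8 pairs the groups did not overlap, each with exact p = 0.10 (0.125 adjusted over the 10 pairs). Such separation was common here, since 81.5% of all genes tested had no overlap in CPM. The share over other gene pairs was not computed. PFKFB2 over PFKFB3 was 0.494, 0.464 and 0.462 in Control and 0.0847, 0.0771 and 0.0889 in MGO replicates 1 to 3, a 5.66-fold lower ratio. ENO2 over ENO1 was 0.0247, 0.0246 and 0.0247 in Control and 0.0129, 0.0125 and 0.0128 in MGO, so neuronal enolase transcripts became rarer relative to the ubiquitous form (log2 difference −0.95).

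SLC2A3 over SLC2A1 went from 0.299, 0.305 and 0.305 to 0.172, 0.158 and 0.153 (log2 difference −0.92), and HK2 over HK1 from 0.273, 0.297 and 0.283 to 0.192, 0.144 and 0.150 (−0.82). With the gene-structure trend removed these 4 ratios kept their direction, at −1.78, −0.65, −0.41 and −0.62. PFKM over PFKL (−0.52) and PFKP over PFKL (−0.35) were lower in MGO and turned to 0.27 and 0.52 with that trend removed. PFKFB4 over PFKFB3 was higher (0.36, or −0.094 with the trend removed) and PGM2 over PGM1 lower (−0.18). ALDOC over ALDOA (0.027, exact p = 1) and ENO3 over ENO1 (−0.076, exact p = 0.70) had overlapping groups, and LDHB over LDHA was not tested because LDHA had too few counts.

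**Figure D4:**
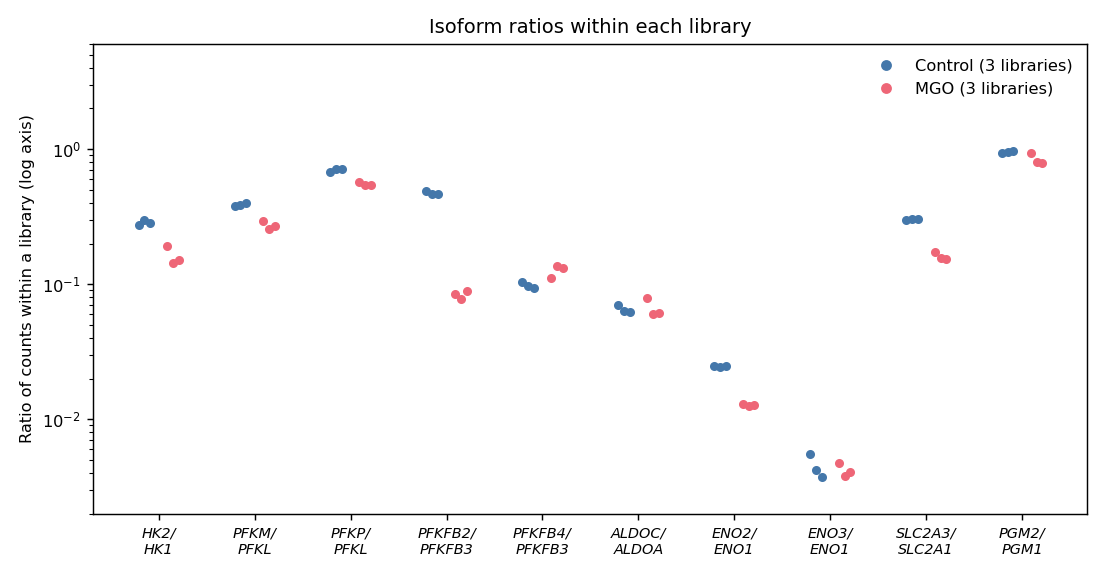
Ratio of the counts of 2 isoforms within each library (log axis) for 10 pairs, 3 Control and 3 MGO libraries as points. The groups lie apart in 8 pairs, most widely for PFKFB2 over PFKFB3, and overlap for ALDOC over ALDOA and ENO3 over ENO1.

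Across all genes the change followed transcript length, taken from GENCODE release 29. The median log2 fold change was 0.66 over 2488 genes with transcripts of 1000 to 1500 nt, 0.15 over 2499 genes of 2000 to 2500 nt and −1.45 over 2255 genes of 5000 nt or more. The 5449 genes under 1000 nt departed from this order, with a median of 0.52. The members had a median length of 1877.5 nt against 1999 nt over 21727 tested genes with a length. Pearson's r between log2 length and log2 fold change was −0.60 across the 32 members and −0.28 across all genes with a length (Spearman −0.51 and −0.37), where genes share the same libraries and are not independent replicates.

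Within length classes the members of 1000 to 1500 nt (6 genes) had a median of 1.41, and the 4 members of 3000 to 4000 nt a median of 0.51 where all 2673 genes of that class had −0.42. The longest members, HK2 (5525 nt) and PFKFB2 (5294 nt), were those with the largest falls, while RPE, the shortest (925 nt), also fell. Members of 5000 nt or more lay below all genes of that class (median −1.63 against −1.45). RPE likewise lay below the genes under 1000 nt (−0.22 against 0.52). With each library's trend on length, GC content and gene span removed, 25 members were raised and 3 lowered as before, but other genes made up part of the counts: HK2 and PFKM (0.30) joined the rises and ADPGK (−0.14) the falls, while PFKL and PFKFB4 (0.023) lost their calls. HK1 then stood at 1.10 and PGK1 at 1.51, both well above their values without it, while GAPDH (1.419), TKT (1.35) and SLC2A1 (1.30) were somewhat lower and still called as raised. The annotated span of PGK1 that entered this trend (218558 bases) shares 139657 bases with ATP7A. The value of PGK1 with the trend removed is therefore uncertain. The parts of transcript length, GC content and gene span in the members' changes were not separated, and they cannot be told apart from the treatment by this design, since all MGO libraries share them.

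**Figure D5:**
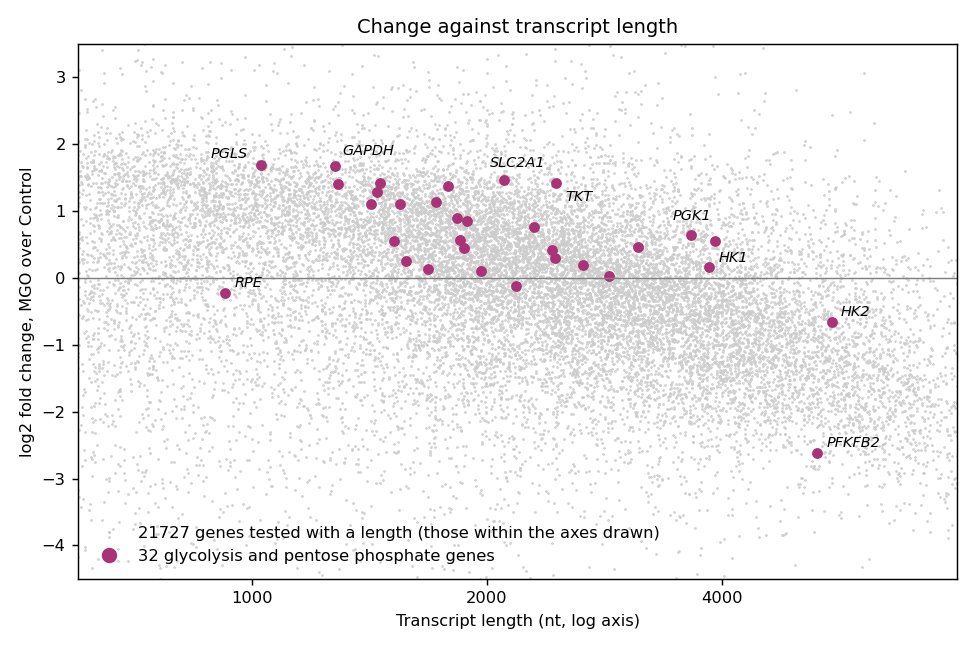
Log2 fold change, MGO over Control, against transcript length in nt (log axis) for the 32 tested members (large points, some named) and for the other genes tested (small grey points, only those within the axes drawn). Longer transcripts tend to lie lower, and HK2 and PFKFB2 are the longest members and those with the lowest values.

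Lists of genes around the pathway were counted in the same way (changes are log2 fold changes), to be read against the 38.8% of all genes raised and 40.5% lowered, or, on library size alone, a median of −0.546 over all genes. Of 17 tested genes among other glycolytic and pentose phosphate isoforms 6 rose and 7 fell (median 0.24), and on library size alone 4 rose and 7 fell (median −0.29). LDHC, the testis lactate dehydrogenase, rose by 1.05 to 6.89 ± 0.407 CPM and PGP, a phosphatase that clears glycolytic side products, by 1.005 to 111 ± 16.2 CPM. H6PD, which feeds a pentose phosphate route in the endoplasmic reticulum, went from 64.8 ± 5.86 to 4.62 ± 0.907 CPM (−3.81, SE 0.13, transcript 7368 nt), and PGM2L1, which makes glucose 1,6-bisphosphate, had −2.51 (SE 0.11, transcript 8515 nt). PKLR, PGK2 and PGAM2 had 0 counts.

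Among 7 tested hexose transporters 2 rose and 3 fell (1 and 4 on library size alone), with SLC2A8 at 0.93, SLC2A13, a myo-inositol transporter, at −1.84 and SLC2A12 at −1.204. The 4 tested gluconeogenic genes all rose (median 0.92; on library size alone 3 did), including the glucose 6-phosphatase G6PC3 (0.98) and the glucose 6-phosphate carrier SLC37A4 (0.86). PCK2 was listed at 0 and the lactate transporter SLC16A1 had 58 counts in all, and, as for LDHA, with the counting of shared reads not stated, neither is read as absent expression.

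Of 18 genes for the fate of pyruvate and lactate 8 rose and 8 fell (median 0.12), and on library size alone 5 rose and 10 fell (median −0.41). MPC2, a subunit of the mitochondrial pyruvate carrier, rose from 35.9 ± 2.43 to 102 ± 4.85 CPM (1.51, SE 0.07). BSG, the chaperone of the lactate transporters, rose by 1.33 (SE 0.082), whereas its relative EMB had −1.86 and the monocarboxylate transporter SLC16A7 −3.25 (SE 0.13). The other carrier subunit, MPC1, named after its value was seen, also rose (0.87).

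Of 10 glycogen genes 4 were raised and 6 lowered (median −0.29), against 1 and 8 on library size alone (median −0.82) and 5 and 2 with the gene-structure trend removed (median 0.13). GYG1, the primer of glycogen, had 0.79 and UGP2, which makes UDP-glucose, 0.31, while the branching enzyme GBE1 had −0.71. In the hexosamine and polyol branches 4 of 11 rose and 6 fell, against 1 and 8 on library size alone and 5 and 5 with the gene-structure trend removed. AKR1B1, aldose reductase, which also reduces MGO, rose by 1.199 (SE 0.066) and ketohexokinase KHK by 0.72, while OGT, which attaches GlcNAc to proteins, had −1.96 and GFPT1, the first enzyme of the hexosamine route, −1.61.

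In the glycerol phosphate shuttle and ribose phosphate use, 3 of 6 rose and 3 fell (2 and 3 on library size alone). GPD2 and GPD1L, which exchange dihydroxyacetone phosphate and glycerol 3-phosphate, had −2.21 (SE 0.079) and −1.41 (SE 0.062). PRPS1, which uses ribose 5-phosphate, rose by 0.68 and GPD1 by 0.37 at 2.21 ± 0.172 CPM. Of 9 transcription factors known to act on glycolytic genes 4 rose and 5 fell, against 2 and 6 on library size alone (median −0.74) and 4 and 3 with the gene-structure trend removed. MYC rose from 13.3 ± 0.202 to 29.02 ± 3.19 CPM (1.13) and MLX, the partner of MondoA, by 0.71. MLXIP, which encodes MondoA, had −2.36 (transcript 5097 nt) and ARNT, the partner of HIF1A, −1.08. The rises of UGP2 and GPD1 were smaller in size than the shift of −0.525 between the scalings.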

How the data were processed

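Polyadenylated RNA from 6 libraries (3 MGO, 3 Control) was analysed from 1 deposited table of raw counts per gene, made by the authors. Per the submitters' processing notes, the build was hg38 and the tools included STAR 2.7.0a, featureCounts 2.0.6 and Trim Galore 0.6.10, together with SAMtools 1.19.2 and FastQC 0.12.0. DESeq2 1.42.0 is named there as well. Their annotation, strand setting and handling of shared reads are not stated. Replicates of a group differed beyond counting noise (chi-square over its degrees of freedom was 3.51 or more).

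Counts were tested over the whole table in R 4.3.3 with edgeR 4.0.16 (filterByExpr, TMM, quasi-likelihood test, Benjamini-Hochberg, threshold 0.05). The SE of a log2 change was taken as its size over the root of the F statistic. Alternatives used limma 3.58.1 (voom), DESeq2 1.42.0, other scalings and filters, a replicate block, a correction for transcript length, GC content and gene span together (splines with 4 degrees of freedom each) and leaving out each library. Ratios had 0.5 added to each count for the test. GENCODE release 29 gave coordinates and lengths (median over basic transcripts), and 56753 of 63643 rows matched. The main fit was tried on simulated counts in which few genes changed, with no trend on length. That trial could not check the scaling for data in which most genes changed. All 33 members are named. From each other list the rule took up to 2 rises and 2 falls, the largest past the threshold averaging 1 CPM or more, with no overlap between groups; 1 gene so chosen is not reported here. The members, lists, tests and alternatives were chosen with earlier results of these data known.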

Additional observations from a re-analysis of the deposited data

How the results depend on the processing

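Under library size alone 14 members were raised and 11 lowered, in place of 25 and 3. The log2 fold changes that turned sign there were HK1 −0.37, ADPGK −0.39, GPI −0.061, PFKM −0.50, PFKP −0.33, PFKFB4 −0.28, BPGM −0.081, ENO2 −0.10, PGM1 −0.23, PGM2 −0.42. With the trend on length, GC content and gene span removed they were HK2 0.48, ADPGK −0.14, PFKFB3 0.12, PGM2 −0.10, and with the replicate block added to it HK2 0.48, ADPGK −0.14, PFKFB3 0.12, PGM2 −0.10. PFKM turned to −0.00011 without the filter and −0.0065 with a minimum of 1 CPM, and PFKFB3 to 0.060 under upper quartile scaling. In the other settings, including DESeq2 and limma-voom, 21 to 28 members were raised and 2 or 3 lowered when all 6 libraries were used. Leaving out 1 library gave 22 to 26 raised, 2 to 4 lowered, and 17746 to 18910 genes called overall. Of 192 values so obtained for single members none turned sign, 13 lost the call and 2 gained it.

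Ratios that turned sign with that trend removed were PFKM over PFKL at 0.27, PFKP over PFKL at 0.52 and PFKFB4 over PFKFB3 at −0.094. Leaving out 1 library gave −0.10 to 0.099 for ALDOC over ALDOA (−0.0093 without Control replicate 3, −0.10 without MGO replicate 1) and −0.20 to 0.079 for ENO3 over ENO1 (0.079 without Control replicate 1). The other 8 ratios kept their direction in each of these.

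Replicate numbers are shared between the groups, but same-numbered libraries did not deviate together (correlations 0.041, 0.018 and 0.013), so they were not treated as pairs. With the replicate block 24 members were raised and 3 lowered. HK1 was the member that lost its call (adjusted p = 0.074). In that paired fit each of the 10 ratios kept its direction, with a smallest possible p of 0.25. Libraries held 117427883 counts or more, and why LDHA and some list genes were near 0 was not tested.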
